A study of Mus musculus with 6 samples.

Results

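Ribosome biogenesis factors are the proteins that transcribe ribosomal RNA, modify and cut it, and fold it with ribosomal proteins into the 2 subunits of the ribosome. The 50 factors described here were taken by gene name from a fixed list, and all 50 were found among the 54532 genes of the count table. They comprise 7 genes of RNA polymerase I transcription, 15 of small-subunit assembly, 15 of large-subunit assembly, 7 of the small nucleolar ribonucleoproteins (snoRNPs) and 6 of nucleolar proteins with shared roles. All 50 passed the filter on low counts, which left 13472 genes for testing.

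RNA was sequenced from mouse Glu-tag cells, an enteroendocrine line that stands in the series for neuroendocrine tumours of the small intestine. There were 3 libraries labelled shIRS2, whose genotype label is an IRS2 knockdown by a stable hairpin, and 3 libraries of a control hairpin, labelled shControl, whose genotype label is WT. IRS2 is an adaptor that couples insulin and IGF receptors to growth signalling. The sources used here do not say whether the hairpin lines were clones or pools, and no treatment or time point separates the samples. The titles number the libraries of each hairpin 1 to 3, and what libraries of equal number share, such as a culture or a day, is not labelled.

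In the nucleolus, RNA polymerase I copies the ribosomal DNA into a long precursor RNA. Small nucleolar RNAs guide its chemical modification, box C/D particles for methylation of the ribose and H/ACA particles for conversion of uridine to pseudouridine. The small-subunit processome then assembles on the front of the precursor, while large-subunit factors act on its rear, and most of both sets leave in the nucleus, while some are released only in the cytoplasm. Growing and dividing cells are known to make these factors in large amounts, and the transcription factor MYC is known to bind and activate many of their genes.

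The libraries labelled shIRS2 numbered 1, 2 and 3 held 16985361, 16428788 and 15654814 counts, and the shControl libraries held 14991019, 19790073 and 17711094. The target gene Irs2 was not reduced where the label says shIRS2, at 31.4, 28.6 and 38.7 CPM (counts per 1000000 counts of the library), against 31.6, 22.7 and 34.3 CPM in the shControl libraries. The log2 fold change was 0.17 (SE 0.16, edgeR adjusted p = 1.00), so each direction below is that of libraries labelled shIRS2 and not of a measured loss of Irs2. Of 12 enteroendocrine markers, 5 had 0 counts in all 6 libraries, among them the proglucagon gene Gcg and the chromogranin gene Chga, which allows a level of up to 0.0295 CPM. Pax6 and Nkx2-2, at 23.7 and 3.17 CPM, were the only 2 of the 12 at 1 CPM or more. Fibroblast and mesenchymal markers were at that level in 7 of 10 cases, with Col3a1 at 735 CPM, while Col1a1, Dcn and Thy1 were below it. Of 8 epithelial markers 2 reached it, with Krt8 at 396 CPM. Apart from Pax6 and Nkx2-2, the listed markers of the labelled cell type were therefore absent or under 1 CPM, and the cells are called by their label.

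The factors were among the more abundant messenger RNAs. Per gene length, their median level was 42.1 FPKM (fragments scaled by gene length and library size), against 6.50 FPKM over all genes tested, and 98% of them reached 10 FPKM, against 38.5% of all genes tested. Npm1, which encodes the abundant histone and ribosomal protein chaperone nucleophosmin, was highest at 545 FPKM over the 6 libraries (477 to 687). Ncl, which encodes nucleolin, a binder of precursor ribosomal RNA, followed at 205 FPKM (158 to 295), and Nhp2, an H/ACA core protein, at 165 FPKM (142 to 199.6). The lowest were Wdr12 at 7.79 FPKM (5.89 to 10.4) and Rrp1b at 12.4 FPKM (9.84 to 17.3), both large-subunit factors. These ranks depend on the gene length used, which was 11955 bases for Wdr12, the longest of the 50. By CPM, Wdr12, at 70.8 to 123, lay above the small-subunit factor Noc4l, at 31.7 to 48.4. The class medians were 36.3 FPKM for RNA polymerase I, 31.3 for the small subunit, 47.3 for the large subunit, 53.0 for the snoRNPs and 124 for the shared nucleolar proteins.

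The factors separated the libraries by replicate number. Both libraries numbered 2, one of each hairpin, had more of these transcripts than the libraries numbered 1 and 3. The 50 factors together took 1.42% of the counts in the library labelled shIRS2 numbered 2, against 1.08% and 1.05% in those numbered 1 and 3. They took 1.56% in the shControl library numbered 2, against 1.14% and 1.08% in those numbered 1 and 3. Number 2 was compared with the mean of 1 and 3 in a model that also held the hairpin. In this comparison 46 of 50 factors were higher and 0 lower at an edgeR adjusted p under 0.05, against 11.6% of all genes tested called higher and 11.9% called lower. The median log2 fold change was 0.47, or 1.39-fold, against -0.00 over all genes tested. Both libraries numbered 2 lay above all 4 others in 46 factors, against 16.7% of genes tested, and 13 factors were at least 1.5-fold higher, against 3.67%. DESeq2 called 44 factors higher, against 7.65% of genes tested, and limma on log2(FPKM + 1) 41, against 6.87%. A test of any difference between the 3 numbers called 45 factors, against 19.6%.

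**Figure D1:**
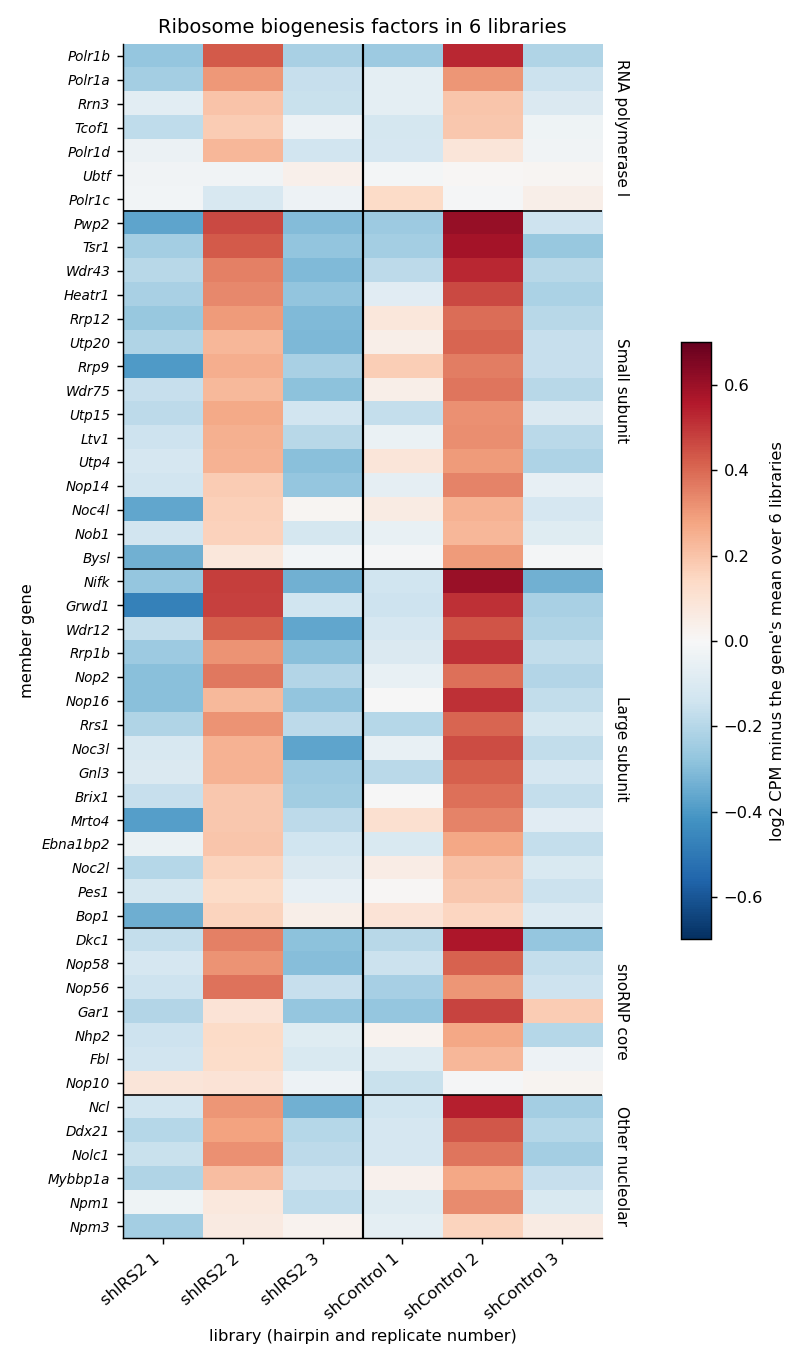
Log2 CPM of each of the 50 factors relative to its own mean over the 6 libraries, with factors in rows grouped by role and libraries in columns. The median over the factors was 0.26 in the library labelled shIRS2 numbered 2 and 0.37 in the shControl library numbered 2, and between -0.20 and -0.10 in the other 4.

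In bulk RNA, a larger share of cells that express a gene and more of its RNA per cell cannot be told apart. Other measures also differed between the numbers. Mitochondrial transcripts took 1.71% and 1.63% of counts in the shIRS2-labelled and shControl libraries numbered 2, against 1.25% to 1.61% in the other 4. The summed enteroendocrine markers, most of it Pax6, stood at 23.2 and 24.9 CPM in the libraries numbered 2, against 26.7 to 30.6 CPM in the other 4. The summed fibroblast and mesenchymal markers overlapped, at 1163 to 1506 CPM in the libraries numbered 2 and 1120.5 to 1685 CPM in the others. Single markers in these lists did separate the numbers, which is common among all genes. Both libraries numbered 2 lay above all 4 others in 16.7% of genes tested and below them in 23.4%. In the shIRS2-labelled and shControl libraries numbered 2, the growth factor receptor gene Pdgfra had 46.5 and 35.0 CPM, against 61.1 to 72.1 CPM in the others. Its relative Pdgfrb had 46.1 and 51.8 CPM, against 35.0 to 43.4 CPM, and Lum, a matrix proteoglycan gene, had 3.23 and 3.44 CPM, against 1.93 to 2.71 CPM. The keratin gene Krt18 had 4.08 and 3.23 CPM, against 4.80 to 6.74 CPM. The summed epithelial markers overlapped, at 400.5 to 411 CPM in the libraries numbered 2 and 381 to 421 CPM in the others, as did the immune and endothelial sums. Irs2 was lower in number 2, at 28.6 and 22.7 CPM, against 31.4 to 38.7 CPM (log2 -0.38, SE 0.10, edgeR adjusted p = 0.0107). The part of these in the difference was not tested. Library totals of the libraries numbered 2 lay within or above the range of the others, and the model with hairpin and number leaves only 2 residual degrees of freedom among libraries.

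Of the 7 RNA polymerase I genes 5 were higher in number 2, and the class median log2 fold change was 0.31. Polr1b, the second largest subunit of the enzyme (chromosome 2, 129100995 to 129126594, plus strand), had 163 CPM in the library labelled shIRS2 numbered 2, against 101 and 104 CPM in those numbered 1 and 3. In the shControl libraries it had 175 CPM in number 2, against 102 and 105 CPM in numbers 1 and 3. The 2 libraries numbered 2 thus stood well clear of the other 4, which spanned only a few CPM, at a 1.68-fold difference (log2 0.75, SE 0.06, edgeR adjusted p = 5.19e-06). Polr1a, the largest subunit, had 341 and 342 CPM in the shIRS2-labelled and shControl libraries numbered 2, against 235 to 264 CPM in the others (log2 0.49, SE 0.06, adjusted p = 8.1e-05). Rrn3, the initiation factor that recruits the polymerase and links it to growth signals, had 152 and 151 CPM in the libraries numbered 2, against 118 to 126 CPM (log2 0.33, SE 0.06, adjusted p = 0.00211). Tcof1, the nucleolar protein treacle, and Polr1d, a subunit shared with RNA polymerase III, were higher at log2 fold changes of 0.31 and 0.27.

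The other pair of RNA polymerase I genes lay near equality. Ubtf encodes UBF, which holds ribosomal DNA in an open state, and it had 319 and 327 CPM in the shIRS2-labelled and shControl libraries numbered 2, against 320 to 333 CPM in the other 4. Its log2 fold change was 0.02 (SE 0.06, 95% interval -0.11 to 0.14, adjusted p = 0.843), and its sign changed under 2 other settings. Polr1c, shared between RNA polymerases I and III, had 82.9 and 89.0 CPM in the libraries numbered 2, against 87.6 to 98.3 CPM in the others (log2 -0.06, SE 0.07, 95% interval -0.21 to 0.08, adjusted p = 0.555). For both genes the libraries overlapped, and both intervals lie below the estimate for Polr1b. With either library numbered 2 left out, 2 of the 7 genes were called in place of 5, and Rrn3 had adjusted p-values of 0.0988 and 0.0857 without the shIRS2-labelled and the shControl library.

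All 15 small-subunit factors were higher in number 2, with log2 fold changes from 0.32 to 0.83 and a median of 0.48. Pwp2, a scaffold of the small-subunit processome (chromosome 10, 78170909 to 78185149, minus strand), had 85.0 CPM in the library labelled shIRS2 numbered 2, against 47.7 and 49.8 CPM in numbers 1 and 3. It had 93.9 CPM in the shControl library numbered 2, against 51.7 and 55.7 CPM. This 1.78-fold difference (log2 0.83, SE 0.07, adjusted p = 3.45e-06) was the largest of the class, and the 2 sets of libraries did not overlap. Tsr1, which acts in late assembly of the small subunit in the cytoplasm, had 157 and 174 CPM in the shIRS2-labelled and shControl libraries numbered 2, against 96.1 to 98.7 CPM (log2 0.79, SE 0.07, adjusted p = 5.06e-06). Wdr43, which helps couple precursor transcription to processing, had 275 and 312 CPM, against 174 to 190 CPM in the others (log2 0.69, SE 0.06, adjusted p = 7.51e-06).

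Early processome scaffolds and late factors were both among those called. The large repeat proteins Heatr1 and Utp20 had log2 fold changes of 0.63 and 0.51, Wdr75 and Utp15 of the subcomplex that supports transcription of the precursor had 0.48 and 0.47, and Utp4 of the same subcomplex had 0.43. Rrp12, an export factor, had 0.55, and Ltv1, an assembly factor that leaves in the cytoplasm, had 0.46. In each of these both libraries numbered 2 lay above the other 4. Nob1, the endonuclease that makes the last cut in the small-subunit RNA, had 0.33, Nop14, a processome protein, 0.42 and Rrp9 0.49. The smallest difference of the class was that of Bysl at 0.32, and the largest p was that of Noc4l, at a log2 fold change of 0.33. Noc4l had 45.8 and 48.4 CPM in the libraries numbered 2, against 31.7 to 42.6 CPM in the others, and its larger SE of 0.10 came with an adjusted p of 0.0229. It was not called by DESeq2 (adjusted p = 0.0619) or limma (adjusted p = 0.0980).

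Of the 15 large-subunit factors 14 were higher, with a class range of 0.25 to 0.85 and a median log2 fold change of 0.56. Nifk, a nucleolar partner of the proliferation antigen Ki-67 (chromosome 1, 118321839 to 118333822, plus strand), showed the largest difference of all 50. It had 142 CPM in the library labelled shIRS2 numbered 2, against 84.4 and 80.4 CPM in numbers 1 and 3. It had 154 CPM in the shControl library numbered 2, against 92.1 and 80.4 CPM, a 1.797-fold difference (log2 0.85, SE 0.07, adjusted p = 3.39e-06). Grwd1, a histone-binding protein of pre-ribosomes, had 75.0 and 76.6 CPM in the libraries numbered 2, against 38.7 to 48.7 CPM in the others (log2 0.77). Rrp1b, a nucleolar protein that also binds chromatin, had 116 and 132 CPM, against 76.2 to 86.7 CPM (log2 0.65, SE 0.07, adjusted p = 2.03e-05). Nop2, a methyltransferase of ribosomal RNA, had a log2 fold change of 0.60, Gnl3, the nucleolar GTPase nucleostemin, 0.52, and Rrs1, which brings in the ribonucleoprotein of the smallest ribosomal RNA, 0.57. The assembly factors Nop16, Noc3l, Brix1, Mrto4, Ebna1bp2 and Noc2l had log2 fold changes of 0.59, 0.56, 0.46, 0.43, 0.38 and 0.30, and each of the 6 was called.

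The PeBoW complex, which is formed by Pes1, Bop1 and Wdr12 and is needed to cut the large-subunit RNA, had unequal values among its members. Wdr12 had 122 and 123 CPM in the shIRS2-labelled and shControl libraries numbered 2, against 70.8 to 83.8 CPM in the others (log2 0.67, SE 0.07, adjusted p = 1.93e-05). Pes1 had 219.9 and 228 CPM, against 181 to 201 CPM (log2 0.27, SE 0.06, adjusted p = 0.00699). Bop1 had 155 CPM in both libraries numbered 2, against 110, 143, 149 and 130.3 CPM in the others, and missed the threshold (log2 0.25, SE 0.09, adjusted p = 0.0662). By FPKM, Wdr12 made up 7.503% of the 3 transcripts in the libraries numbered 2 (7.48% to 7.53%) and 5.78% in the others (5.02% to 6.48%). These shares describe RNA, depend on the gene lengths used for FPKM and were not tested.

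Among the snoRNP proteins 6 of 7 were higher, with a median log2 fold change of 0.45, and 3 of 7 were called without the shControl library numbered 2. Dkc1, the pseudouridine synthase dyskerin (chromosome X, 75095854 to 75109777, plus strand), had 271 and 314 CPM in the shIRS2-labelled and shControl libraries numbered 2, against 174 to 190 CPM in the others (log2 0.72, SE 0.07, adjusted p = 8.87e-06). Its H/ACA partner Nop10 had 41.7 and 38.9 CPM, against 35.1 to 41.4 CPM, and was not called (log2 0.09, SE 0.09, adjusted p = 0.470). Nhp2 was higher at 0.33. Gar1 was called (log2 0.45, SE 0.09) although its libraries overlapped, with 109 and 141 CPM in number 2 and 115 CPM in the shControl library numbered 3. Dkc1 made up 19.2% of the FPKM of the 4 H/ACA transcripts in the libraries numbered 2 and 15.4% in the others, while Nop10 made up 9.89% and 12.1%.

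The 3 box C/D core genes among the factors were each higher in number 2. Nop58 had 343 and 367 CPM in the shIRS2-labelled and shControl libraries numbered 2, against 224 to 254 CPM in the others (log2 0.58, SE 0.06, adjusted p = 2.81e-05). Nop56, its scaffold partner, had 493 and 470 CPM, against 323 to 343 CPM (log2 0.55, SE 0.06, adjusted p = 3.03e-05). Fbl, the methyltransferase fibrillarin, had a smaller log2 fold change of 0.30, and its share of the 3 transcripts by FPKM was 24.4% in number 2 and 27.8% in the others.

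All 6 shared nucleolar proteins were higher, with a median log2 fold change of 0.47. Ncl (chromosome 1, 86344719 to 86359400, minus strand) had 2524 CPM in the library labelled shIRS2 numbered 2, against 1855 and 1616 CPM in numbers 1 and 3. It had 2980 CPM in the shControl library numbered 2, against 1849 and 1730 CPM (log2 0.67, SE 0.07, adjusted p = 2.59e-05). The RNA helicase Ddx21, which works with both RNA polymerase I and snoRNPs, had 517 and 574 CPM in the libraries numbered 2, against 369 to 390 CPM (log2 0.57, SE 0.06, adjusted p = 2.55e-05). Nolc1, a chaperone of snoRNPs, had 503 and 522 CPM, against 341 to 372 CPM (log2 0.55, SE 0.06, adjusted p = 2.81e-05). Mybbp1a and Npm1 had log2 fold changes of 0.40 and 0.34. Npm3, a small relative of nucleophosmin, was at the edge of the threshold (log2 0.20, SE 0.07, adjusted p = 0.0487), and it was not called under several other settings.

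**Figure D2:**
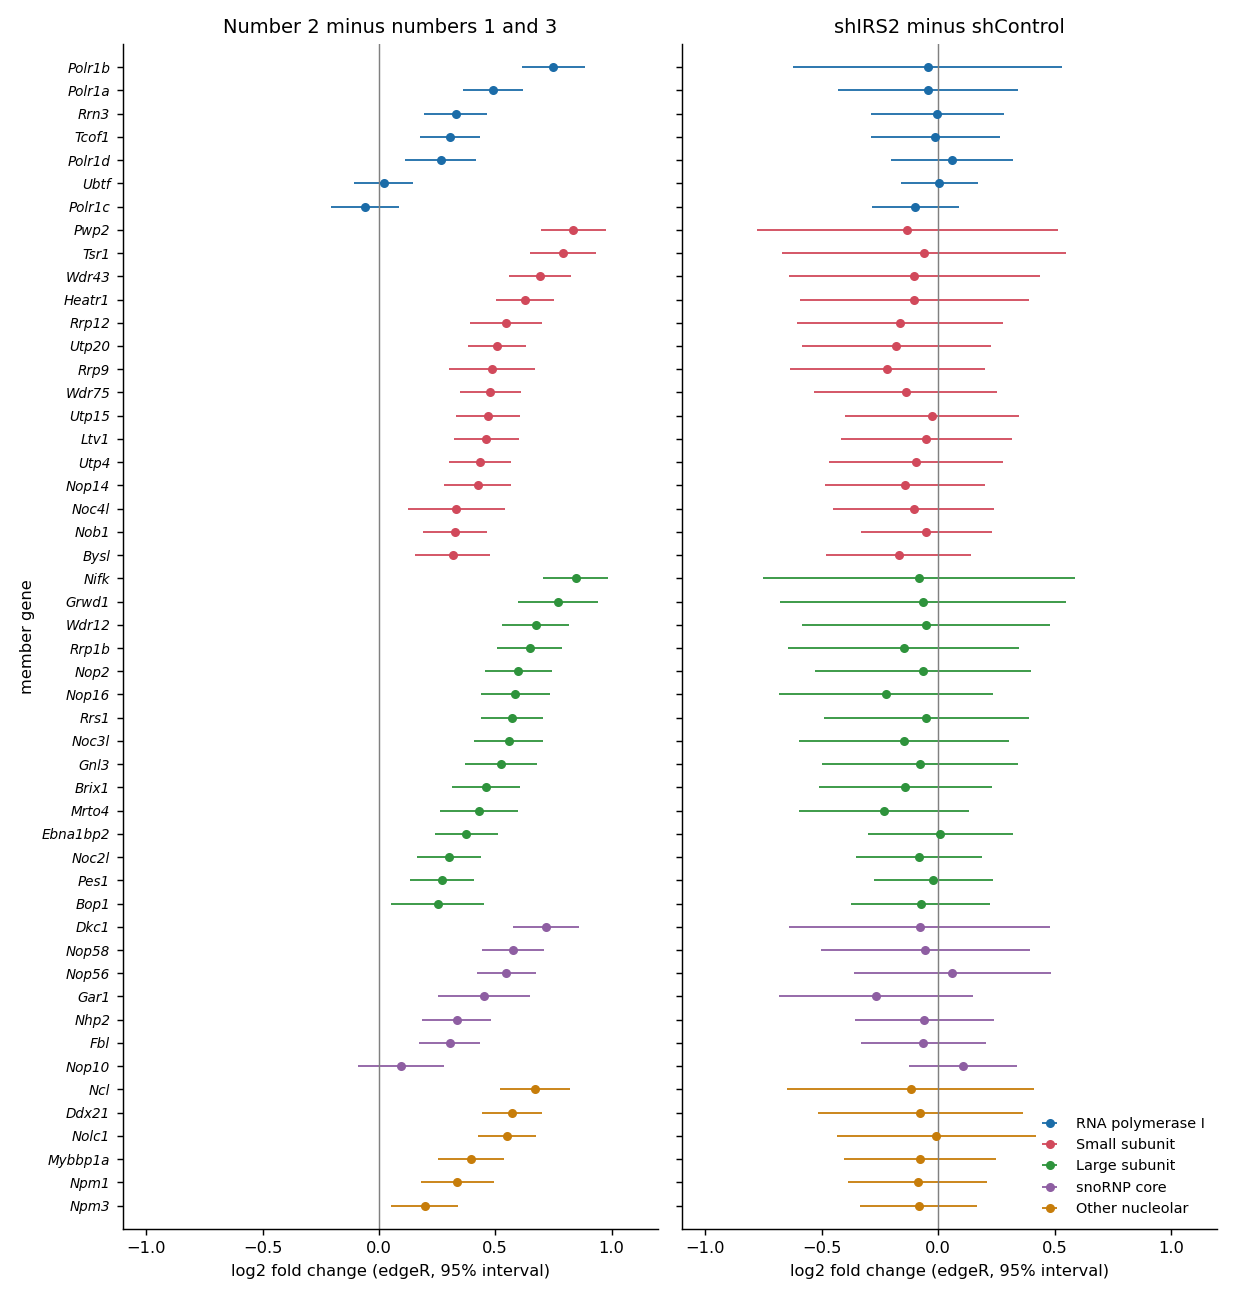
Log2 fold change of each factor with its 95% interval, for number 2 against numbers 1 and 3 and for shIRS2 against shControl, by role class. The first runs from -0.06 for Polr1c to 0.85 for Nifk, and the second from -0.27 to 0.11.

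The difference was present within each hairpin. Measured among the libraries labelled shIRS2 alone, the median of number 2 against the mean of 1 and 3 was 0.48 on the log2 scale (-0.06 to 0.83), and among the shControl libraries it was also 0.48 (-0.07 to 0.88). Against 5085 of 13472 genes tested, it was positive in both hairpins for 48 of 50 factors. The exceptions were Polr1c, negative in both, and Ubtf, at -0.00 in the libraries labelled shIRS2 and 0.04 in shControl. The difference was the larger in the shControl libraries for 30 of 50, against 6772 of 13472 genes tested. Among the 30 were Ncl, at 0.57 in the libraries labelled shIRS2 and 0.77 in shControl, and Dkc1, at 0.60 and 0.83. A term for a different contrast in each hairpin, added after seeing the data and treating 1 and 3 as repeats, was called for 0 of 50 factors by edgeR, against 0.00742% of genes tested. At an unadjusted p under 0.05 there were also 0, against 1.15%. The smallest unadjusted p among the factors was 0.169.

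**Figure D3:**
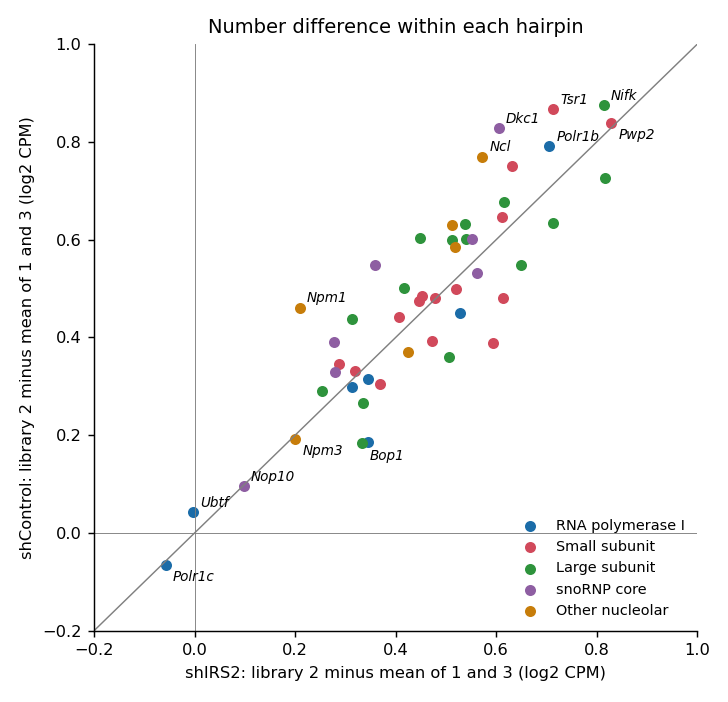
Number 2 against the mean of numbers 1 and 3 on the log2 scale, for each of the 50 factors, within the libraries labelled shIRS2 and within the shControl libraries, coloured by role class. The median is 0.48 in each hairpin and 48 factors are above 0 in both.

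Between numbers 1 and 3 the factors had smaller differences. For number 3 minus number 1 the median log2 fold change of the factors was -0.04, with a range of -0.23 to 0.20. The edgeR test called 0 of 50 (smallest adjusted p 0.264), against 0.238% of genes tested. It had 4 at an unadjusted p under 0.05, against 10.3%. DESeq2 also called 0, against 0.386% of genes tested, with 1 at an unadjusted p under 0.05, against 4.48%. The limma test called 0, against 0%, with 3 at that p, against 9.48%. Set against each other library of its own hairpin, number 2 had median differences of 0.46 over number 1 and 0.50 over number 3 among the libraries labelled shIRS2, and of 0.42 and 0.53 among the shControl libraries.

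Other genes of the same pathway, listed with earlier results known, also lay higher in number 2. Of 136 such genes 133 were tested. Of these 92 were called higher and 0 lower, against 11.6% of all genes tested called higher and 11.9% called lower. Their median log2 fold change was 0.32, against -0.00 over all genes tested. The large-subunit list had 36 of 45 higher, among them Mdn1, the giant ATPase that strips factors from large-subunit precursors (0.64, adjusted p = 8.87e-06), and Cebpz (0.66, adjusted p = 2.02e-05). The small-subunit list had 34 of 44 higher, with the smallest p for Nol10 (0.60) and Tsr2, a chaperone of a small-subunit protein (0.70). Further RNA polymerase I genes were higher in 7 of 15 cases, and Cd3eap, a subunit gene of the enzyme, had 36.3 and 39.3 CPM in the shIRS2-labelled and shControl libraries numbered 2, against 20.3 to 22.2 CPM in the others (log2 0.87, SE 0.09, adjusted p = 2.02e-05). Polr1e, its partner in the polymerase, had 0.72. Of 10 further snoRNP genes 5 were higher, led by Znhit6 at 0.77 and Naf1 at 0.45. Of 19 tested nucleases of ribosomal RNA processing 10 were higher, with the smallest p for Pop1 at 0.51 and Rpp14 at 0.48.

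The structural proteins of the ribosome, which these factors assemble, lay near equality as a group, with a slight lean to lower values. Of 77 cytosolic ribosomal protein genes, a list chosen after seeing the data, 1 was higher and 2 were lower in number 2. Over all genes tested the shares were 11.6% and 11.9%. The median log2 fold change of the 77 was -0.04, with 50 of them below 0, against 50.6% of genes tested. Their summed level was 52897 and 54807 CPM in the shIRS2-labelled and shControl libraries numbered 2, against 55621 to 59456 CPM in the others. The gene called higher was Rpl24 (0.95, adjusted p = 0.0188) and those called lower were Rps12 (-0.38) and Rps2 (-0.23). Ribosomal protein genes have many processed pseudogenes, which can take or lend reads. Both libraries numbered 2 lay below all 4 others in 21 of the 77, against 23.4% of genes tested. Myc, a known activator of ribosome biogenesis genes, had 479 and 478 CPM in the shIRS2-labelled and shControl libraries numbered 2, against 327 to 419 CPM in the others (log2 0.45, SE 0.07, adjusted p = 0.000333). Its part in the difference of the factors was not tested.

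**Figure D4:**
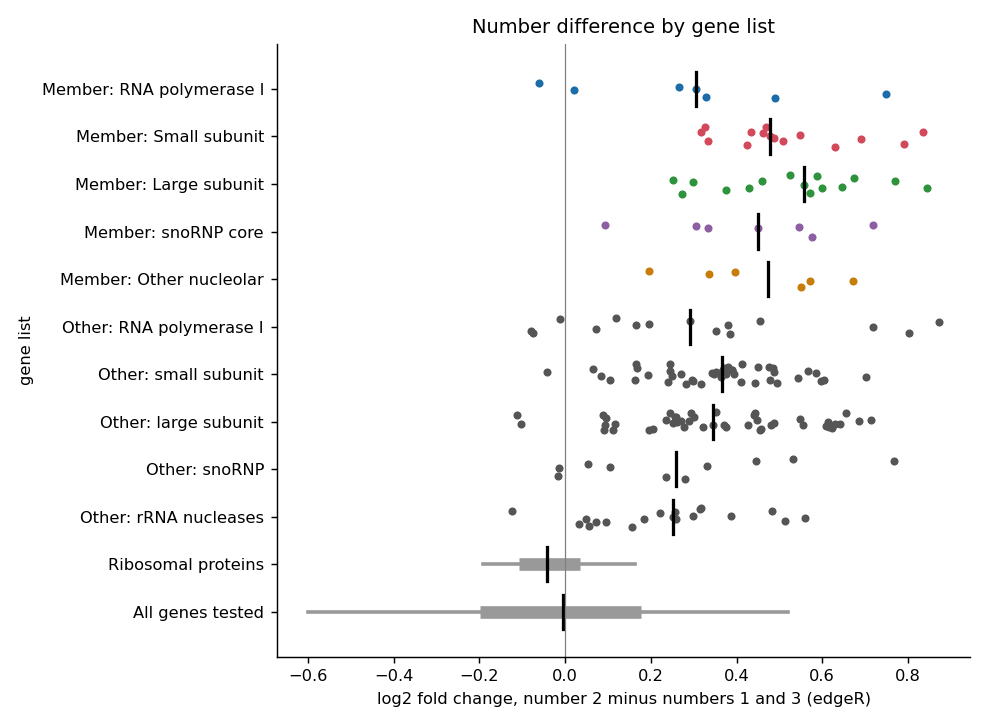
Median log2 fold change of number 2 against numbers 1 and 3 for the role classes, the pathway lists outside the 50 factors, the ribosomal protein genes and all genes tested. The role classes lie between 0.31 and 0.56, the pathway lists between 0.25 and 0.37 and the ribosomal proteins at -0.04.

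Some factor genes carry small nucleolar RNA genes within them on the same strand. The count table lists 1 to 5 such genes inside 7 of the 50, namely Tsr1, Wdr43, Gnl3, Nop56, Nop58, Dkc1 and Ncl. All 7 were higher in number 2, with a median log2 fold change of 0.67 (0.52 to 0.79), and 39 of the other 43 were higher, with a median of 0.45. The counting rule for overlapping genes is not given in the sources used here, so these counts may not keep host and guest apart.

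Promoter sequence was set beside these values because the factors moved together. RefSeq promoters of GRCm38.p6, from 250 bases before to 50 bases after the gene start, were matched by name for 44 of the 50. The E-box CACGTG, the site bound by MYC and MAX, reads the same on both strands. A promoter of 10 of the 44 factors held it (22.7%), against 11.9% of 9551 tested genes with a promoter and 8.09% of all 27025 genes with a promoter. The share was 18.0% for the pathway genes outside the factors, 14.9% for tested genes higher in number 2 and 13.5% for those lower. By class, the motif was in 5 of 14 small-subunit, 3 of 13 large-subunit, 1 of 6 RNA polymerase I, 1 of 5 shared nucleolar and 0 of 6 snoRNP genes. The following stretches, 70 bases before to 30 bases from the start and written 5′ to 3′ on the gene's strand, show 6 factors with the motif in capitals.
Rrn3, chr16:13780629-13780728, plus strand: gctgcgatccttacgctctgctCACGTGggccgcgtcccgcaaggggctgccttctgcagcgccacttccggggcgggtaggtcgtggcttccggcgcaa
Tsr1, chr11:74898010-74898109, plus strand: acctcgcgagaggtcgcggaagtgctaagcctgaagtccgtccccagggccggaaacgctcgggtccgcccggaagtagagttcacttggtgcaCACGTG
Wdr43, chr17:71616145-71616244, plus strand: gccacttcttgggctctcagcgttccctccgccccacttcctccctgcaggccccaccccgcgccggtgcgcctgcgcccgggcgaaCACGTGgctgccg
Utp4, chr8:106893570-106893669, plus strand: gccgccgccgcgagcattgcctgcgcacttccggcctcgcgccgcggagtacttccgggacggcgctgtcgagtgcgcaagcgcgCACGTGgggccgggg
Nop2, chr6:125131813-125131912, plus strand: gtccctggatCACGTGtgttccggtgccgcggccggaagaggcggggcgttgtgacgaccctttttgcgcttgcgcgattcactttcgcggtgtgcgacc
Pes1, chr11:3963905-3964004, plus strand: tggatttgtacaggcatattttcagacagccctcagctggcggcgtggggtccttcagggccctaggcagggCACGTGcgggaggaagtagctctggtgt
In Tsr1, Wdr43, Utp4 and Pes1 the motif lies just past the start, and in Rrn3 and Nop2 it lies before it. The other 4 with the motif were Grwd1, Ltv1, Utp20 and Mybbp1a, where it begins 29 to 41 bases past the start. The next 4 stretches have no such motif and show the 2 factors with the largest difference, Nifk and Pwp2, and 2 of those with the smallest, Polr1c and Nop10.
Nifk, chr1:118321773-118321872, plus strand: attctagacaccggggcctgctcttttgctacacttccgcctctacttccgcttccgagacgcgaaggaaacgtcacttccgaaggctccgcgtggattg
Pwp2, chr10:78185120-78185219, minus strand: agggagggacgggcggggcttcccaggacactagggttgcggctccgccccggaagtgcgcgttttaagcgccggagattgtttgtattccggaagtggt
Polr1c, chr17:46248016-46248115, minus strand: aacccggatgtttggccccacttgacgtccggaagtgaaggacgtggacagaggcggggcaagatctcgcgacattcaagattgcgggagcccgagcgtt
Nop10, chr2:112261856-112261955, plus strand: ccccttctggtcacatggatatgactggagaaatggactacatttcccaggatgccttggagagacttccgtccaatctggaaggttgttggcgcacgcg
Of the 10 factors with the E-box 10 were higher, at a median log2 fold change of 0.48 (0.27 to 0.79). Of the 34 without it 31 were higher, at a median of 0.48 (-0.06 to 0.85). Whether the motif bears on the difference was not tested. A second motif, CGGAAG on either strand, was chosen after the stretches were seen. It was in a promoter of 24 of 44 factors (54.5%), against 36.1% of tested genes and 18.8% of all genes with a promoter. The share was 64.9% for the pathway genes outside the factors and 40.1% for tested genes higher in number 2. Factors with and without this motif also had medians of 0.48 and 0.48. A match is only a match of letters, and no binding was measured.

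The comparison the series was designed for, shIRS2 against shControl, called none of the factors. The edgeR test called 0 of 50, with 0 at an unadjusted p under 0.05, and 0% of the 13472 genes tested, with 1.94% of them at that p. DESeq2 also called 0 of 50, against 0.0148% of genes tested, and the limma test 0 of 50, against 0%. Each had 0 of 50 at an unadjusted p under 0.05, against 1.43% of genes tested in DESeq2 and 2.43% in limma. The factors leaned low, with 45 of 50 log2 fold changes below 0, against 50.1% of genes tested, and a median of -0.08, or 0.948-fold. The largest class difference was that of the small subunit, at a median of -0.10 with 15 of 15 below 0. The large subunit stood at -0.08 with 14 of 15, the shared nucleolar proteins at -0.08 with 6 of 6, the snoRNPs at -0.06 with 5 of 7 and RNA polymerase I at -0.01 with 5 of 7. In this comparison the difference between the numbers is part of the error, and the median moved to -0.27 without the library labelled shIRS2 numbered 2 and to 0.10 without the shControl library numbered 2. With both libraries numbered 2 left out, chosen after seeing the data, it was -0.06. The lean was not particular to the 50 factors. Of the tested pathway genes outside them, 113 of 133 were below 0, at a median of -0.07. Of the cytosolic ribosomal protein genes 57 of 77 were, at a median of -0.04.

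The interval of each factor bounds the size of a hairpin difference. In the model with the hairpin only, the 95% interval excluded a 1.5-fold change in either direction for 33 of 50 (66%), close to the 68.0% of all genes tested. In log2 units the median half-width was 0.39, against 0.32 for all genes. Gar1 had the largest difference, at 88.5, 109 and 84.7 CPM in the libraries labelled shIRS2 numbered 1, 2 and 3, against 84.7, 141 and 115 CPM in the shControl libraries. The mean was 94.1 ± 13.035 CPM and 114 ± 28.4 CPM (SD, n = 3 each), and the groups overlapped (log2 -0.27, SE 0.19). Mrto4, a placeholder for a ribosomal stalk protein during assembly, had 82.7, 123 and 94.99 CPM in the libraries labelled shIRS2, against 117, 137 and 102 CPM in shControl (log2 -0.23, SE 0.16). Rrp9, a protein of the snoRNP that guides early cleavage, had 123, 192 and 138 CPM, against 181, 207 and 144 CPM (log2 -0.22, SE 0.19). Each was lower in shIRS2 in the pairs of equal number, apart from Gar1 in number 1.

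Polr1c was the only factor whose libraries labelled shIRS2 all lay below the shControl libraries, at 88.4, 82.9 and 87.6 CPM, against 98.3, 89.0 and 92.4 CPM, where 3.77% of genes tested did so. The reverse order held for 0 factors and 2.75% of genes tested. The mean was 86.3 ± 2.98 CPM and 93.2 ± 4.71 CPM (SD, n = 3 each), and the difference was not called (log2 -0.10, SE 0.08). Of the other factors with the smallest p of their class, Bysl averaged 61.3 ± 8.93 CPM and 69.5 ± 8.997 CPM, and Nop16, of large-subunit assembly, 85.5 ± 18.4 CPM and 101 ± 25.98 CPM. On the higher side, Nop10 averaged 40.4 ± 2.02 CPM and 37.8 ± 2.40 CPM (log2 0.11, SE 0.10) and Polr1d 124 ± 16.6 CPM and 120.1 ± 8.42 CPM (log2 0.06, SE 0.12). Npm3 and Npm1 had log2 fold changes of -0.08 and -0.09, at SEs of 0.11 and 0.13.

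Taking the number as a replicate block narrowed the intervals to a median half-width of 0.14 and still called 0 of 50 factors, with a smallest adjusted p of 0.379, while 1 of all genes tested was called, or 0.00742%. At an unadjusted p under 0.05, 10 factors differed with the block, against 9.16% of genes tested. All 10 were lower, against 3.99% of genes tested that were lower at that p. They were 6 small-subunit, 3 large-subunit and 1 snoRNP factors. Mrto4 had a blocked log2 fold change of -0.24 (SE 0.08, adjusted p = 0.387) and Rrp9 one of -0.23 (SE 0.08, adjusted p = 0.418). The factors' median log2 ratio of shIRS2 to shControl was -0.06 in the libraries numbered 1, -0.09 in those numbered 2 and -0.05 in those numbered 3. In all 3 pairs 21 of 50 were lower, 11 of them small-subunit factors, against 15.1% of genes tested, and 0 were higher in all 3, against 15.5%. Of the pathway genes outside the factors, 44 of 133 were lower in all 3 pairs and 3 were higher.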

How the data were processed

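The data are 6 RNA sequencing libraries of Glu-tag cells, strand-specific and read as paired ends per the labels' protocols. Per the submitters' processing notes, reads were placed on mm10. The aligner and counter were not given in the sources used here. The authors deposited whole-number counts per gene, not normalized, and FPKM values of the same genes and libraries. Column names beginning NC were read as shControl and those beginning S as shIRS2, by name alone.

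Counts were analysed with edgeR 4.0.16 in R 4.3.3. The steps were filterByExpr by hairpin, TMM scaling and the robust quasi-likelihood test, with Benjamini-Hochberg adjustment over all 13472 genes tested at a threshold of 0.05. These genes hold 99.86% of the counts. The hairpin model had the hairpin only, and the number model had hairpin and replicate number. Adjusted p-values are from edgeR unless another tool is named, and tests were two-sided. P-values reflect the spread among these samples, which may in part be technical. In the number comparison they do not measure how far replicate numbers vary, because each number stands for a single library of each hairpin. DESeq2 1.42.0 and limma 3.58.1 (log2(FPKM + 1)) were alternatives. Scripts were tested on simulated data. Limits from 0 counts are 3 counts over the sum of all 6 totals and cover counting error only.

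The series speaks of biological triplicates, but replicate numbers differ between samples only in the titles. Deviations from the group mean correlated at 0.167, 0.576 and 0.260 between libraries numbered 1, 2 and 3. All were above 0.1, but no label states a pairing, so the main hairpin model left the number out. A second fit of the hairpin held it as a replicate block. Across numbers, shIRS2 number 1 correlated with shControl number 3 at 0.199, and shIRS2 number 3 with shControl number 1 at 0.189. Deviations within a hairpin cancel out, so a difference of number 2 alone makes 1 and 3 correlate. The values therefore do not show that libraries numbered 1 or 3 are paired. The 50 factors, the lists and the contrast of number 2 were chosen with earlier results of these data known. Factors given with full statistics are, per class, the 3 with the smallest and the 1 with the largest p in the number comparison and the 2 with the smallest p in the hairpin comparison, and for other pathway lists the 2 with the smallest p. Polr1c, Pes1 and Gar1 in the number comparison were added after their values were seen, as factors not called, of the same complex or with overlapping libraries.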

Additional observations from a re-analysis of the deposited data

How the results depend on the processing

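The number of factors higher in number 2 was 46 and stayed between 32 and 47 with single libraries left out, while the genes called in either direction ranged from 808 to 3687, against 3169. Without the library labelled shIRS2 numbered 2 there were 34 factors and 1081 genes, and without the shControl library numbered 2 there were 32 and 808. The genes called were 1968 with DESeq2, 1836 with limma and 2056 for number 2 minus number 1 alone. By class, the factors called with single libraries left out were 2 to 5 for RNA polymerase I, 12 to 15 for the small subunit, 11 to 15 for the large subunit, 3 to 6 for the snoRNPs and 4 to 6 for the shared nucleolar proteins. For number 3 minus number 1 they were 0 to 1. The Ubtf difference ranged from -0.0024 to 0.044 with single libraries left out and was -0.0047 for number 2 minus number 3 alone.

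In the hairpin comparison, genes called were 2 with DESeq2, 6 with no filter and 1 with the replicate block, against 0, and the blocked fit changed no call of a factor. The factors' median ranged from -0.27 to 0.10 with single libraries left out. The same ranges were -0.066 to 0.14 for Polr1d, -0.43 to 0.019 for Nop16, -0.15 to 0.0051 for Npm3 and -0.17 to 0.082 for Npm1. With both libraries numbered 2 left out, Polr1d was -0.0014 and Npm1 0.0095. The cause of these changes was not tested. With 3 libraries a hairpin and 2 residual degrees of freedom in the number model, small differences are beyond these data.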
